A study of Mus musculus with 16 samples.

Results

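The genes described here are 10 members of the JAK-STAT pathway measured in mouse mast cells: the cytokine-signal inhibitors Cish, Socs1, Socs2 and Socs3, the kinases Pim1 and Pim2, the transcription factors Stat5a and Stat5b, and the Janus kinases Jak2 and Tyk2. They were taken by name from the array annotation, as every non-control probe whose gene name is one of these 10, which gave 16 of 41174 probes and 10 of the 17082 genes tested. All 16 probes passed the filter on dim probes. One probe stood for each gene, the brightest over all arrays, and the other probes of Socs2, Pim1, Pim2, Jak2 and Stat5b are given where they differ.

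The cells were bone-marrow derived mast cells, differentiated with IL-3 (5 ng/ml) and SCF (40 ng/ml) for more than 4 weeks, of which over 90% carried the alpha chain of the IgE receptor and c-kit according to the study's design text. In the activated groups the cells were sensitised with anti-DNP IgE (5 ug/ml, 1 hour) and then given the antigen DNP-HSA (100 ng/ml) together with either an agonist polyclonal goat anti-mouse TIM-3 antibody or goat IgG (15 ug/ml each) for 2 or 16 h. The resting groups received the same antibody or IgG for 2 or 16 h with neither IgE nor antigen. No group had IgE alone, so an effect of antigen in the results below means that of IgE and antigen together. Each group had 4 two-colour arrays, and on each of the 16 arrays the Cy5 channel held RNA of anti-TIM-3 cells and the Cy3 channel RNA of IgG cells, with no dye swap. Within a group, an effect of the antibody and a constant dye bias of a probe therefore cannot be told apart, whereas a constant dye bias cancels in a difference between groups. Nothing in the labels says whether the 4 arrays of a group came from separate cultures or animals, so the p-values measure the spread between these arrays, which may be technical.

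Cytokine receptors without kinase activity of their own are bound by Janus kinases, which phosphorylate STAT proteins when a ligand binds. In mast cells IL-3 and related cytokines activate JAK2 and STAT5, and STAT5 then induces Cish, Socs genes and Pim kinases. CIS and the SOCS proteins damp the same receptors, so that their transcripts are commonly read as a trace of recent STAT5 signalling, while the Pim kinases are serine/threonine kinases linked to survival and growth. Tyk2 serves mainly interferon, IL-10 and IL-12 family receptors.

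The start regions of the members that responded to antigen differ in the short elements they hold, and those of Cish, Socs1 and Socs3 are shown for that reason. Each window runs from 250 bases before to 50 bases after the RefSeq start site (build GRCm38.p6) and is written 5′ to 3′ on the gene's strand, with matches in capitals to TTCNNNGAA (TTC and GAA 3 bases apart, the spacing recognised by STAT5), to TTC and GAA 4 bases apart (N is any base), or to a pair of GAAA 2 bases apart (an interferon regulatory factor element). Each was searched on both strands. Cish lies at chr9:107296409-107296708 (plus strand), Socs1 at chr16:10785487-10785786 (minus strand) and Socs3 at chr11:117969317-117969616 (minus strand).
Cish: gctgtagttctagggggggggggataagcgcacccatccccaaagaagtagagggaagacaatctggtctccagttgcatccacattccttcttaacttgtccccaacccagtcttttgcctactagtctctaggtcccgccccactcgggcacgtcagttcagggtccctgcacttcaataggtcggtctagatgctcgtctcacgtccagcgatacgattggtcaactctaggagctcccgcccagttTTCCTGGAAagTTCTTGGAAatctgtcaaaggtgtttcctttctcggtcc
Socs1: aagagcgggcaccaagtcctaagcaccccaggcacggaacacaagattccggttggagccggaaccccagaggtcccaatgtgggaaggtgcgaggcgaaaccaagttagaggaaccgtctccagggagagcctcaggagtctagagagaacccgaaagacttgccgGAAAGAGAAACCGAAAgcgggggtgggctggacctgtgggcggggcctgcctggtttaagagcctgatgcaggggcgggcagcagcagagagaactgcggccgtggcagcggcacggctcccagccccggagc
Socs3: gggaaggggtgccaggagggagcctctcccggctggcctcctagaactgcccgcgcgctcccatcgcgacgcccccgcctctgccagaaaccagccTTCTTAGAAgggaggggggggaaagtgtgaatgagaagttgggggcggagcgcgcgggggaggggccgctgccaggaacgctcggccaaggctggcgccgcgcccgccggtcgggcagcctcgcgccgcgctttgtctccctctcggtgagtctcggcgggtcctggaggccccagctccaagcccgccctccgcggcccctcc
The Cish window held 2 matches to TTCNNNGAA, at bases 251 to 259 and 262 to 270, and the Socs3 window held 1, at bases 97 to 105. The Socs1 window held 2 overlapping matches to the GAAA pair, at bases 168 to 177 and 174 to 183. Of the 32851 windows of 300 bases in the RefSeq table, 8.3% held TTCNNNGAA, 6.95% TTC and GAA 4 bases apart and 3.44% the GAAA pair. The table has windows for 9 of the 10 members, and none of the 3 patterns was found in the windows of Pim1, Pim2, Stat5a, Stat5b, Jak2 or Tyk2. These matches describe letters in the windows and nothing about binding in these cells.

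The arrays had 0 saturated spots, and the share of probes clearly brighter than their background ranged from 54.8% to 67.7% in the Cy5 channel and from 53.7% to 62.1% in the Cy3 channel. The 12 mast cell markers examined (among them Kit, Fcer1a, Cpa3 and Gata2) were above background in Cy3 on all 16 arrays, with a median at the 99.3 percentile of all genes. Of 8 macrophage and dendritic cell markers 7 were above background on all arrays. Their summed intensity in anti-TIM-3 cells ranged from 24919 to 64244 in activated and from 26771 to 71295 in resting cultures at 2 h, and from 16512 to 42057 in activated and from 37599 to 90426 in resting cultures at 16 h. In IgG cells it ranged from 23789 to 57939 in activated and from 26119 to 66833 in resting cultures at 2 h, and from 21785 to 65361 in activated and from 36956 to 74416 in resting cultures at 16 h, so the ranges overlapped in both dyes. Overlapping ranges can hide a shift between arrays of the same replicate number. The sum mainly follows Lyz2, whose mean log2 signal was 15.08, against 11.74 for Adgre1, the next brightest of the list. Of 7 neutrophil markers on the array 2, Mpo and S100a9, were above background on all arrays, and Elane, Camp and Ngp on none. Of 4 basophil markers 3 were above background on all arrays, against 3 of 6 lymphocyte and 1 of 4 fibroblast markers on the array, and Itga2, Cd3g and Dcn of these lists were above background on none. The summed intensity of the lymphocyte markers moved with activation at 2 h: it was 1166 to 1446 in activated and 624 to 675 in resting anti-TIM-3 cultures, and 936 to 1245 in activated and 623 to 656 in resting IgG cultures. The part of other cells in the results was not tested, and fewer cells of a type and less RNA per cell cannot be told apart in bulk samples. The log ratios of 3 arrays, resting 2 h replicate 3, resting 16 h replicate 3 and activated 2 h replicate 1, deviated together from their group means across genes (r from 0.47 to 0.63). Where a member's call changed without these 3 arrays, the value without them is given beside the result.

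The first question was whether TIM-3 stimulation altered the response of these genes to antigen, which is answered by the difference between activated and resting cells in log2(anti-TIM-3/IgG). At 2 h the difference was positive for Jak2, Pim1, Socs1, Cish and Socs3, by 0.36 to 0.61 on the log2 scale, and did not pass the test for Socs2, Pim2, Stat5a, Stat5b and Tyk2. These 5 of 10 members all had a higher ratio in activated cells, where the ratio of 5.58% of all genes was called in either direction (3.59% higher). The median difference of the 10 members was 0.30, against -0.00 for all genes. At 16 h only Socs3 among the 10 passed, in the opposite direction.

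Jak2 encodes the kinase attached to the receptors for IL-3, GM-CSF and erythropoietin. Its log2 ratio was 0.75, 0.55, 0.34 and 0.75 on the activated arrays at 2 h, against -0.09, -0.12, 0.15 and 0.00 on the resting arrays. Every activated array was above every resting array, and the difference was 0.61 ± 0.11 (SE, adjusted p = 0.00166 by limma, with Benjamini-Hochberg adjustment over all genes and a threshold of 0.05, as throughout). The other Jak2 probe gave a difference of 0.65.

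Cish, which encodes the SH2 protein CIS, a STAT5-induced inhibitor of cytokine receptors, had log2 ratios of 0.45, 0.61, 0.57 and 0.59 on the activated arrays and 0.27, 0.16, -0.01 and 0.08 on the resting arrays at 2 h. The groups did not overlap, and the difference was 0.43 ± 0.09 (SE, adjusted p = 0.00631). It was 0.33 with Agilent's own processed signals, which missed the threshold (adjusted p = 0.0683).

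Socs1 and Socs3 encode inhibitors that block Janus kinases directly. For Socs1 the log2 ratios at 2 h were 0.30, 0.41, 0.50 and 0.33 on the activated arrays and 0.13, 0.04, -0.26 and -0.14 on the resting arrays. For Socs3 they were 0.30, 0.38, 0.35 and 0.36 on the activated arrays and 0.05, -0.04, -0.03 and -0.03 on the resting arrays. Neither gene overlapped between groups, and Socs3 had the narrower spread, an SD of 0.04 in each group. The differences were 0.44 ± 0.09 for Socs1 (adjusted p = 0.00695) and 0.36 ± 0.04 for Socs3 (adjusted p = 1.21e-05, SE).

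Pim1 encodes a serine/threonine kinase that cytokines induce through STAT5. Its values at 2 h were 0.30, 0.09, 0.13 and 0.06 on the activated arrays and -0.37, -0.71, -0.23 and -0.50 on the resting arrays. The groups did not overlap, and the difference was 0.60 ± 0.09 (SE, adjusted p = 0.000272). The activated 2 h mean of 0.14 stood apart from the means of the other 3 groups, which lay between -0.45 and -0.34, and where 0 falls in such ratios depends on how the dyes were normalised. The other Pim1 probe had a mean ratio of 0.25 ± 0.10 in activated and 0.01 ± 0.05 in resting cells (SD, n = 4 each), a difference of 0.24. Both probes gave a positive difference (adjusted p = 0.0195 over all probes for the other one), but they disagreed on the ratio in resting cells. The other probe was much dimmer there, at 7.02 in Cy5 and 7.01 in Cy3, against 9.90 and 10.35 for the probe used. The part of dimness in the disagreement was not tested.

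**Figure D1:**
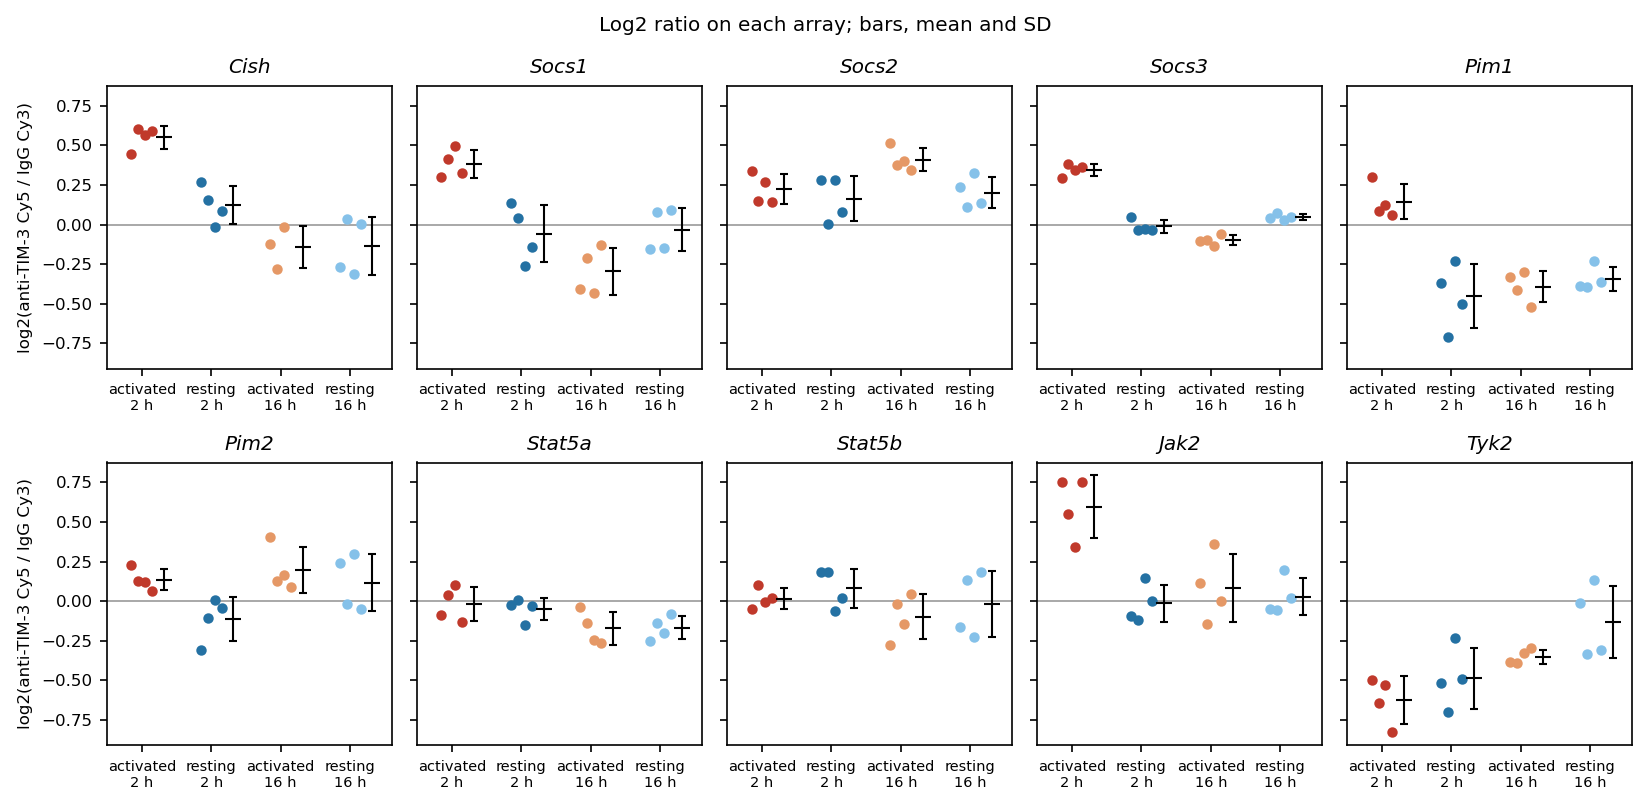
Log2(anti-TIM-3 Cy5/IgG Cy3) on each array (points) with the group mean and SD (bars), for the 10 members in the 4 groups; the vertical axis is in log2 units and 0 is equal signal in both channels. Activated 2 h arrays stood above all other groups for Cish, Socs1, Socs3 and Pim1, while Tyk2 was below 0 in all groups but for 1 resting 16 h array.

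Within slides, which carried 4 arrays each of mixed groups, the 5 differences at 2 h kept their direction. On the slide with 2 activated arrays (replicates 1 and 2) and resting replicate 1 they were 0.74 for Jak2, 0.56 for Pim1, 0.29 for Socs3, 0.26 for Cish and 0.22 for Socs1. On the slide with activated replicates 3 and 4 and resting replicate 3 they were 0.40 for Jak2, 0.32 for Pim1, 0.38 for Socs3, 0.59 for Cish and 0.68 for Socs1. With slide as a block all 5 stayed past the threshold. Among all genes the called ones were 613 higher and 340 lower. The split was 381 to 423 when Agilent's processed signals were used and 696 to 116 when arrays were centred on the median.

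At 16 h, Socs3 was the member called, with log2 ratios of -0.10, -0.10, -0.14 and -0.06 on the activated arrays and 0.04, 0.07, 0.03 and 0.05 on the resting arrays. The groups did not overlap, and the difference was -0.15 ± 0.04 (SE, adjusted p = 0.0285), against 8.58% of all genes called (3.87% lower). Within the 2 slides that held both groups it was -0.09 and -0.14. It missed the threshold when slide was a block (-0.14, adjusted p = 0.0912), without the 3 arrays that stood apart (-0.15, adjusted p = 0.0546), without resting replicate 1, 2 or 3 or activated replicate 1, 2 or 3, and with median centring, where it was -0.01. The differences for Cish, Pim1, Pim2, Stat5a, Stat5b and Jak2 at 16 h lay between -0.08 and 0.08. Socs1 had a difference of -0.26 (adjusted p = 0.0877), Tyk2 one of -0.22 and Socs2 one of 0.21 (adjusted p = 0.0843). Socs2 passed without the 3 arrays that stood apart (0.25, adjusted p = 0.0464) and with median centring (0.34, adjusted p = 0.0267). With that centring the median gene differed by 0.06, which is not taken off the Socs3 and Socs2 values, and 1877 genes were called higher and 336 lower.

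Between the time points, the ratios of activated cells were lower at 16 h than at 2 h for Cish, Socs1, Pim1, Jak2 and Socs3, 5 of 10 members, where 8.05% of all genes were lower. The difference, 16 h minus 2 h, was -0.69 ± 0.09 for Cish, -0.68 ± 0.09 for Socs1, -0.54 ± 0.09 for Pim1, -0.52 ± 0.11 for Jak2 and -0.45 ± 0.04 for Socs3 (SE). Socs2 (0.18) and Tyk2 (0.27) missed the threshold, and passed without the 3 arrays that stood apart (0.22, adjusted p = 0.0366, and 0.32, adjusted p = 0.0192) and with median centring (0.41 and 0.47), where Pim2 (0.06) passed too (0.33, adjusted p = 0.0475). With that centring the median gene differed by 0.10, which is not taken off these values, and 4227 genes were called higher and 1118 lower. The adjusted p of the 5 called members ran from 4.76e-07 for Socs3 to 0.00252 for Jak2, and 17.2% of all genes were called. The activated 2 h arrays are shared with the comparison at 2 h, so the 2 sets of calls are not independent. The 1 slide that held both groups gave -0.86 for Cish, -0.85 for Socs1, -0.40 for Pim1, -0.49 for Socs3 and -0.18 for Jak2, for which a single 16 h array with a ratio of 0.36 stood against 2 arrays. The other Jak2 probe gave -0.68 and the other Pim1 probe -0.38. In resting cells 0 of 10 members were called between 16 h and 2 h, where 0.287% of all genes were. With limma at an unadjusted p under 0.05, 3 of 10 passed there. The 0.287% is at the adjusted threshold, and no share of all genes is given for the unadjusted one. Tyk2 had the largest difference among the members, 0.36 (adjusted p = 0.102). Without resting 2 h replicate 3, Tyk2 (0.44, adjusted p = 0.0252) and Cish (-0.30, adjusted p = 0.0433) passed.

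**Figure D2:**
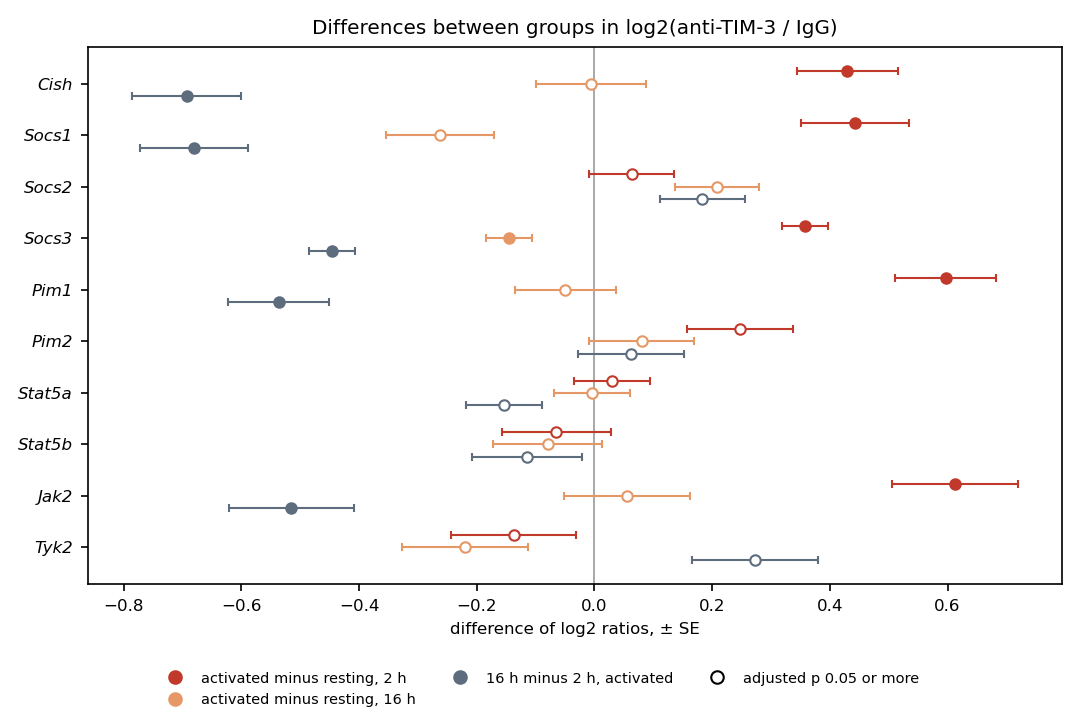
Differences between groups in log2(anti-TIM-3/IgG) for each member, with SE bars; the horizontal axis is in log2 units and filled points passed an adjusted p of 0.05. Jak2, Pim1, Socs1, Cish and Socs3 lay at 0.36 to 0.61 for activated minus resting at 2 h and at -0.69 to -0.45 for 16 h minus 2 h in activated cells.

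Taken within each group, the ratio of anti-TIM-3 to IgG cells was above 0 at 2 h in activated cells for Jak2 (0.60), Cish (0.55), Socs1 (0.39), Socs3 (0.35) and Socs2 (0.23) and below 0 for Tyk2 (-0.62). These were 6 of 10 members, against 33.3% of all genes called, with adjusted p from 6.93e-08 for Socs3 to 0.00249 for Socs2. All 4 arrays had the stated sign for each of the 6 genes. Pim1 (0.14) missed the threshold on this probe, while its other probe reached 0.25 (adjusted p = 0.000146 over all probes).

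The size of these ratios depended on how the dyes were normalised. With each array centred on its median log ratio in place of loess, the median gene itself moved to 0.22 in activated cells at 2 h, and relative to that gene the ratios were 1.16 for Cish, 0.95 for Jak2, 0.81 for Socs1, 0.61 for Socs3, 0.35 for Socs2 and -0.51 for Tyk2. With Agilent's processed signals Cish was 0.27. The direction held for all 6 genes under these 3 scalings. The other Socs2 probe had a ratio of 0.09 and did not pass (adjusted p = 0.199 over all probes), and 1 of the 2 other Stat5b probes had -0.24 where the probe used had 0.02.

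In resting cells at 2 h, Socs2 was above 0 and Pim1 and Tyk2 below, 3 of 10 members against 14% of all genes. Tyk2 had log2 ratios of -0.52, -0.70, -0.23 and -0.49 (mean -0.49, adjusted p = 0.00043) and Pim1 averaged -0.45 (adjusted p = 0.000114). Socs2 had 0.28, 0.00, 0.28 and 0.08 (mean 0.16, adjusted p = 0.041), which rested on replicates 1 and 3, since without either the mean was 0.12 and missed the threshold, as it did with slide as a block (adjusted p = 0.0663) and without the 3 arrays that stood apart (0.12, adjusted p = 0.136). Median centring moved the median gene to 0.21, and measured from it Pim1 and Tyk2 were each at -0.36 and Socs2 at 0.26. The other probes of Pim1 (0.01) and Socs2 (-0.01) did not pass.

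In resting cells at 16 h, Socs2 was again above 0 (0.20, adjusted p = 0.0112), with Pim1 (-0.34, adjusted p = 0.00119) and Stat5a (-0.17, adjusted p = 0.0158) below, 3 of 10 against 21.6% of all genes. Socs2 fell to 0.16 and missed the threshold without the 3 arrays that stood apart (adjusted p = 0.0619), as did Stat5a (-0.16, adjusted p = 0.0675), whereas Tyk2 (-0.13 on all arrays) passed without them (-0.22, adjusted p = 0.0451). Cish (-0.13) passed with Agilent's processed signals (-0.35, adjusted p = 0.00525) and lay on the other side of 0 with median centring. The direction of Stat5a turned under median centring, to 0.08 relative to a median gene at 0.30, while that of Socs2 (0.35) and Pim1 (-0.18) did not. Socs2 and Stat5a also missed the threshold without replicate 1 (0.19 and -0.14) or replicate 3 alone, and the other probes of Socs2 (0.04) and Pim1 (-0.03) did not pass.

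In activated cells at 16 h, Socs2 and Pim2 were above 0 and Pim1, Tyk2, Socs1, Stat5a and Socs3 below, 7 of 10 against 30.1% of all genes. Socs2, an inhibitor known for damping growth hormone and cytokine signalling, had log2 ratios of 0.51, 0.38, 0.40 and 0.34 (mean 0.41, adjusted p = 1.28e-05). Pim1 averaged -0.39, Tyk2 -0.35, Socs1 -0.30, Stat5a -0.17 and Socs3 -0.10, with adjusted p from 0.000118 for Pim1 to 0.012 for Socs3. Under median centring the median gene moved to 0.39, and relative to it Socs1 (0.15), Stat5a (0.14) and Socs3 (0.12) turned to the other side of 0, while Socs2 (0.60), Pim2 (0.29), Pim1 (-0.23) and Tyk2 (-0.20) did not. Pim2 (0.20, adjusted p = 0.026) missed the threshold without replicate 1, at 0.13, and without replicate 3, at 0.21, and its other probe had 0.09. Without replicate 3 Socs3 (-0.09) and Stat5a (-0.15) were lost too, and Stat5a also without replicate 4 (-0.14). Slide as a block ended the calls of Pim2 (0.15) and Socs3 (-0.09). The other probes of Socs2 (0.16) and Pim1 (-0.13) passed with smaller ratios. The Cish spot of replicate 1 was marked as an outlier and left out, so Cish rests on 3 arrays in this group (-0.12, -0.28 and -0.02). Its mean of -0.14 missed the threshold, and it passed with Agilent's processed signals (-0.34, adjusted p = 0.00591). With median centring it was 0.70, on the other side of 0, and passed, as did 13562 genes, 12070 of them higher. Relative to the median gene it was 0.31, a value that was not tested.

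**Figure D3:**
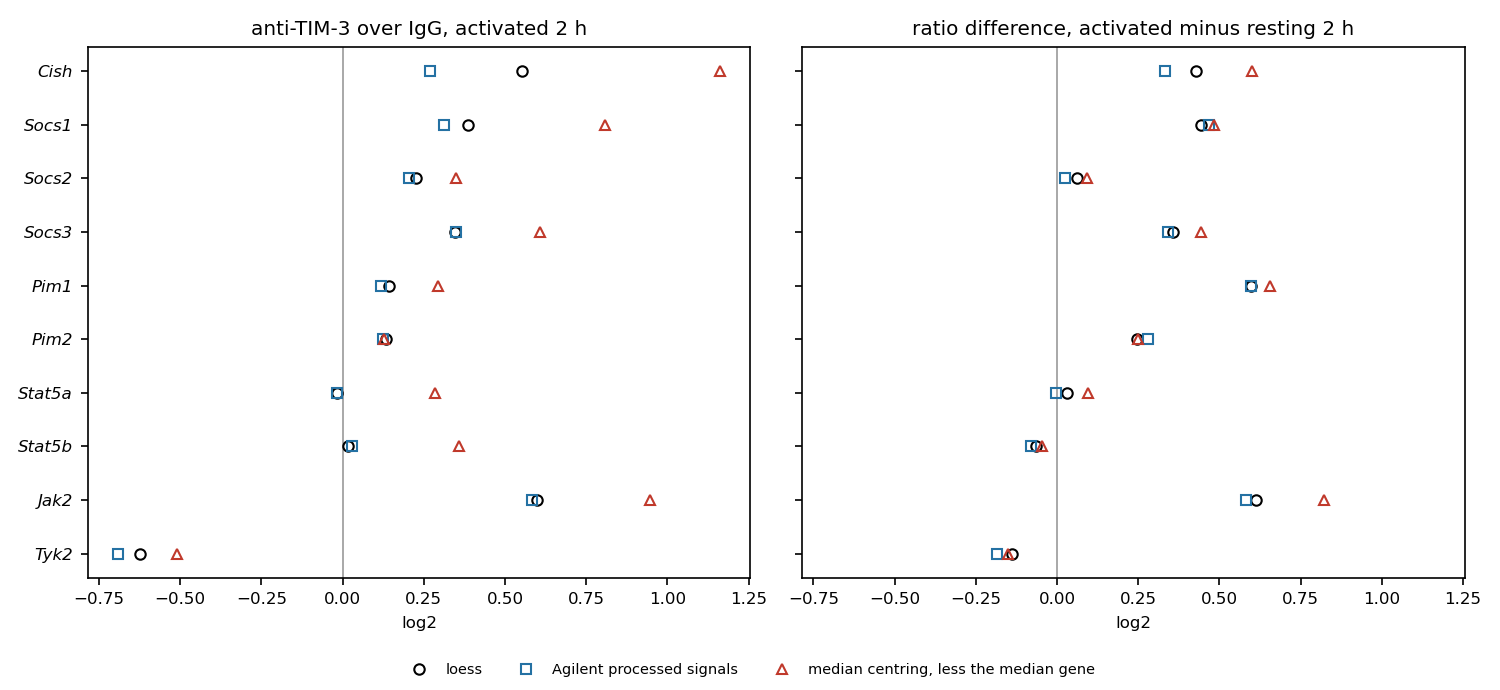
Log2(anti-TIM-3/IgG) of the members in activated cells at 2 h (left) and its difference, activated minus resting at 2 h (right), under loess, Agilent's processed signals and median centring less the median gene; both horizontal axes are in log2 units. Cish spread from 0.27 to 1.16 on the left and from 0.33 to 0.60 on the right.

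The effect of IgE and antigen together was read within each dye, as activated over resting cells in normalised log2 intensity. The part of IgE in it cannot be told apart from that of antigen. After 2 h the clearest member was Jak2. In anti-TIM-3 cells its level was 13.55, 13.56, 13.37 and 13.51 on the activated arrays against 10.99, 11.03, 11.05 and 11.11 on the resting arrays, a 5.48-fold rise (log2 2.45 ± 0.08 SE, adjusted p = 1.2e-12). In IgG cells it was 12.79, 13.01, 13.03 and 12.76 against 11.08, 11.14, 10.91 and 11.11, a 3.58-fold rise (log2 1.84 ± 0.09, adjusted p = 1.17e-10). The activated and resting arrays were far apart in both dyes, and the other Jak2 probe rose by 2.11 in anti-TIM-3 cells and 1.46 in IgG cells.

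Cish, Pim1 and Socs3 also rose after 2 h of antigen. In anti-TIM-3 cells Cish rose 2.07-fold (log2 1.05, adjusted p = 9.55e-09), with levels of 16.02 to 16.14 on the activated and 14.91 to 15.12 on the resting arrays. In IgG cells it rose 1.54-fold (log2 0.62, adjusted p = 3.98e-07), with 15.46 to 15.58 on the activated and 14.76 to 14.96 on the resting arrays. Pim1 rose by 0.98 in anti-TIM-3 cells (adjusted p = 6.11e-08) and 0.38 in IgG cells (adjusted p = 0.00407), and Socs3 by 0.83 in anti-TIM-3 cells (adjusted p = 0.000292) and 0.48 in IgG cells (adjusted p = 0.0222). The Socs3 rise in IgG cells missed the threshold without the 3 arrays that stood apart (0.36, adjusted p = 0.129), with slide as a block (0.45, adjusted p = 0.0761), and without resting replicate 2 (0.40) or activated replicate 1 (0.35) or 4 (0.41). Within the 2 slides that held both groups, Cish rose by 1.02 and 1.19 in anti-TIM-3 cells and by 0.76 and 0.59 in IgG cells, Pim1 by 1.07 and 0.88 in anti-TIM-3 cells and by 0.51 and 0.56 in IgG cells, and Jak2 by 2.56 and 2.39 in anti-TIM-3 cells and by 1.82 and 1.99 in IgG cells.

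Socs1 behaved differently from the other inhibitors. In anti-TIM-3 cells its level at 2 h was 14.36, 14.06, 14.12 and 14.10 on the activated arrays and 14.34, 14.49, 13.95 and 14.17 on the resting arrays, which overlapped (log2 -0.08, adjusted p = 0.58). In IgG cells it was 14.06, 13.65, 13.62 and 13.77 on the activated arrays and 14.21, 14.45, 14.21 and 14.32 on the resting arrays, which did not, and it fell by 0.52 (adjusted p = 0.00016). Thus the positive Socs1 difference in ratio at 2 h went with a fall in IgG cells rather than a rise in anti-TIM-3 cells. Without the 3 arrays that stood apart the anti-TIM-3 value was -0.24 (adjusted p = 0.0393).

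Of the upstream genes, Tyk2 fell after 2 h of antigen by 0.74 in anti-TIM-3 cells (adjusted p = 8.82e-05) and by 0.60 in IgG cells (adjusted p = 4.75e-05). Stat5a rose by 0.23 in anti-TIM-3 cells (adjusted p = 0.0304) and by 0.20 in IgG cells (adjusted p = 0.0252), and without the 3 arrays that stood apart it missed the threshold in both (0.16 and 0.14), as it did in both without resting replicate 1 or 3 or activated replicate 1. Without activated replicate 2 or 3 the call was lost in anti-TIM-3 cells, and without resting replicate 2 or activated replicate 4 in IgG cells. Stat5b fell by 0.45 in anti-TIM-3 cells (adjusted p = 0.000189) and by 0.38 in IgG cells (adjusted p = 0.000152) on the probe used, whereas its other probes changed by 0.08 and -0.06 in anti-TIM-3 cells and by 0.12 and -0.13 in IgG cells, none past the threshold. Socs2 rose by 0.19 in anti-TIM-3 cells (adjusted p = 0.0348), which was lost without the 3 arrays that stood apart (0.14), without resting replicate 3 or 4 and without activated replicate 1, 2 or 3. It had 0.13 in IgG cells (adjusted p = 0.228), where its other probe rose by 0.27. Pim2 had 0.01 in anti-TIM-3 cells and -0.23 in IgG cells (adjusted p = 0.0584, and 0.0254 with the replicate number as a block). In all, 8 of 10 members changed after 2 h in anti-TIM-3 cells, 6 up and 2 down, against 45.3% of all genes, and 8 of 10 in IgG cells, 5 up and 3 down, against 42.9%.

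After 16 h of antigen the called members were Pim2 and Pim1 in both dyes and Socs2 in anti-TIM-3 cells. Pim2, whose product is a close relative of Pim1, fell by 0.58 in anti-TIM-3 cells (adjusted p = 0.000355) and by 0.66 in IgG cells (adjusted p = 0.000247), with levels of 9.88 to 10.14 on the activated and 10.31 to 10.73 on the resting arrays in anti-TIM-3 cells and 9.62 to 10.01 on the activated and 10.35 to 10.66 on the resting arrays in IgG cells. Its other probe fell by 0.53 in anti-TIM-3 cells and 0.59 in IgG cells. Pim1 fell by 0.36 in anti-TIM-3 cells (adjusted p = 0.0058) and by 0.31 in IgG cells (adjusted p = 0.044), and its other probe changed by -0.16 and -0.06, short of the threshold. The fall of Pim1 in IgG cells was also lost without resting replicate 1 (-0.26) or 2 (-0.27) or activated replicate 2 (-0.30), 3 (-0.27) or 4 (-0.33). Socs2 rose by 0.41 in anti-TIM-3 cells (adjusted p = 0.000862) and had 0.20 in IgG cells (adjusted p = 0.142). Socs1 had -0.26 in anti-TIM-3 cells (adjusted p = 0.0863) and passed without the 3 arrays that stood apart (-0.30, adjusted p = 0.0262). Within the 2 slides that held both groups, Pim2 changed by -0.63 and -0.51 in anti-TIM-3 cells and by -0.60 and -0.54 in IgG cells, Pim1 by -0.34 and -0.44 in anti-TIM-3 cells and by -0.11 and -0.45 in IgG cells, and Socs2 by 0.35 and 0.42 in anti-TIM-3 cells. These were 3 of 10 members in anti-TIM-3 cells, against 19.3% of all genes, and 2 of 10 in IgG cells, both lower, against 12.3% (7.02% lower). With the replicate number as a block, which paired the arrays here, 5 members were called in anti-TIM-3 cells, Socs1 (-0.26, adjusted p = 0.0355) and Stat5b (-0.14, adjusted p = 0.0464) being added, and 4 in IgG cells, Socs2 (0.20, adjusted p = 0.0358) and Socs3 (0.31, adjusted p = 0.0337) being added. The 19.3% and 12.3% belong to the fit without that block, and no share of all genes is given for the fit with it. The summed intensity of the basophil markers also differed between these groups, at 25991 to 27636 in activated and 21618 to 24495 in resting anti-TIM-3 cultures and at 27415 to 29826 in activated and 20378 to 21694 in resting IgG cultures, and its part in the results at 16 h was not tested. This sum mainly follows Cd200r3, whose mean log2 signal was 14.56, against 10.33 for Mcpt8, the next brightest of the list.

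**Figure D4:**
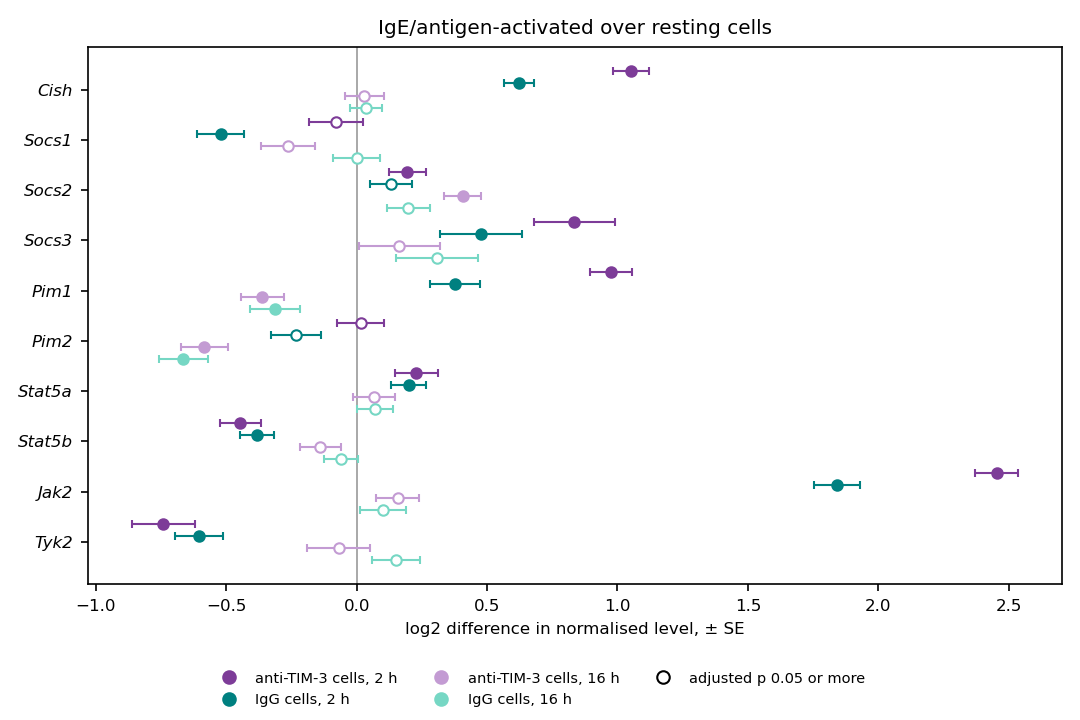
Log2 difference in normalised level between IgE/antigen-activated and resting cells, with SE bars, for anti-TIM-3 cells (Cy5) and IgG cells (Cy3) at 2 h and 16 h; filled points passed an adjusted p of 0.05. Jak2 stood out at 2.45 in anti-TIM-3 cells and 1.84 in IgG cells at 2 h, and at 16 h the called points were Pim2 and Pim1 in both and Socs2 in anti-TIM-3 cells.

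These genes also differed between 16 h and 2 h in IgG cells. Time in culture, time with goat IgG and, in activated cells, time since IgE and antigen cannot be told apart here. In resting cells Pim2 was 4.02-fold higher at 16 h than at 2 h (log2 2.01, adjusted p = 7.46e-11), with levels of 10.35, 10.66, 10.43 and 10.37 at 16 h against 8.57, 8.47, 8.53 and 8.20 at 2 h. Within the 3 slides that held both groups it was higher by 2.20, 2.08 and 1.88. Pim1 was higher by 1.15, Socs2 by 0.79, Stat5b by 0.65, Stat5a by 0.46, Socs1 by 0.40 and Cish by 0.25, and Tyk2 was lower (-0.31, a call lost without the 3 arrays that stood apart, at -0.26), so that 8 of 10 members were called, against 46.9% of all genes. In activated cells 9 of 10 were called, against 60.1%. Jak2 was lower at 16 h (-1.67, and -1.87 within the 1 slide that held both groups), as was Cish (-0.34), and Pim2 (1.58), Stat5b (0.97), Socs1 (0.92), Socs2 (0.86), Pim1 (0.46), Tyk2 (0.44) and Stat5a (0.33) were higher. Socs3 had -0.25 there (adjusted p = 0.193, and 0.0296 with the replicate number as a block). The other probes agreed for Pim2 (1.70 in resting and 1.27 in activated cells) and Socs2 (0.50 and 0.42), but not for Stat5b, whose other probes lay between -0.15 and 0.10, and in activated cells not for Pim1 (-0.15). The Stat5b differences thus rest on 1 of its 3 probes. That probe had a mean log2 signal of 13.73, and the others were far dimmer, at 8.04 and 6.67. Marker sums moved with time too: in resting IgG cultures the basophil sum was 20378 to 21694 at 16 h and 24352 to 29987 at 2 h, and the lymphocyte sum 533 to 558 at 16 h and 623 to 656 at 2 h. In activated IgG cultures the basophil sum was 27415 to 29826 at 16 h and 24624 to 27161 at 2 h, the lymphocyte sum 541 to 611 at 16 h and 936 to 1245 at 2 h, and the neutrophil sum 731 to 943 at 16 h and 1054 to 1966 at 2 h. The basophil sum again mainly follows Cd200r3. The part of these sums in the differences was not tested.

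Within each dye, the order of the 4 groups was not the same for all members. For Jak2 the activated 2 h group stood apart, at 13.50 ± 0.08 in anti-TIM-3 cells and 12.90 ± 0.14 in IgG cells (SD, n = 4 each), and the other 3 means in IgG cells, 11.23 ± 0.17, 11.13 ± 0.10 and 11.06 ± 0.10, differed from their neighbours by no more than an SD. In anti-TIM-3 cells the activated 16 h mean (11.31 ± 0.20) and the resting 16 h mean (11.15 ± 0.09) also differed by less than the larger SD. For Cish the activated 2 h group was highest, at 16.07 ± 0.05 in anti-TIM-3 cells and 15.52 ± 0.05 in IgG cells, and the other 3 means in anti-TIM-3 cells, 15.01 to 15.04, differed by less than their SDs. Pim2 ran in both dyes from the 2 h groups (8.21 to 8.44) over activated 16 h (9.98 ± 0.12 in anti-TIM-3 and 9.79 ± 0.17 in IgG cells) to resting 16 h (10.57 ± 0.18 and 10.45 ± 0.14). Pim1 was lowest in resting cells at 2 h, at 9.90 ± 0.04 in anti-TIM-3 and 10.35 ± 0.19 in IgG cells, and highest in resting cells at 16 h, at 11.16 ± 0.14 and 11.51 ± 0.18. In anti-TIM-3 cells its activated means at 2 h (10.88) and 16 h (10.80) differed by less than their SDs of 0.15 and 0.12. Socs2 was highest in activated cells at 16 h, at 11.52 ± 0.09 in anti-TIM-3 and 11.11 ± 0.06 in IgG cells, followed by resting cells at 16 h (11.11 ± 0.13 and 10.91 ± 0.13). Tyk2 was lowest in activated cells at 2 h, at 9.88 ± 0.06 in anti-TIM-3 and 10.50 ± 0.13 in IgG cells, and its other 3 means in anti-TIM-3 cells, 10.60 to 10.67, differed by less than the larger SDs.

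**Figure D5:**
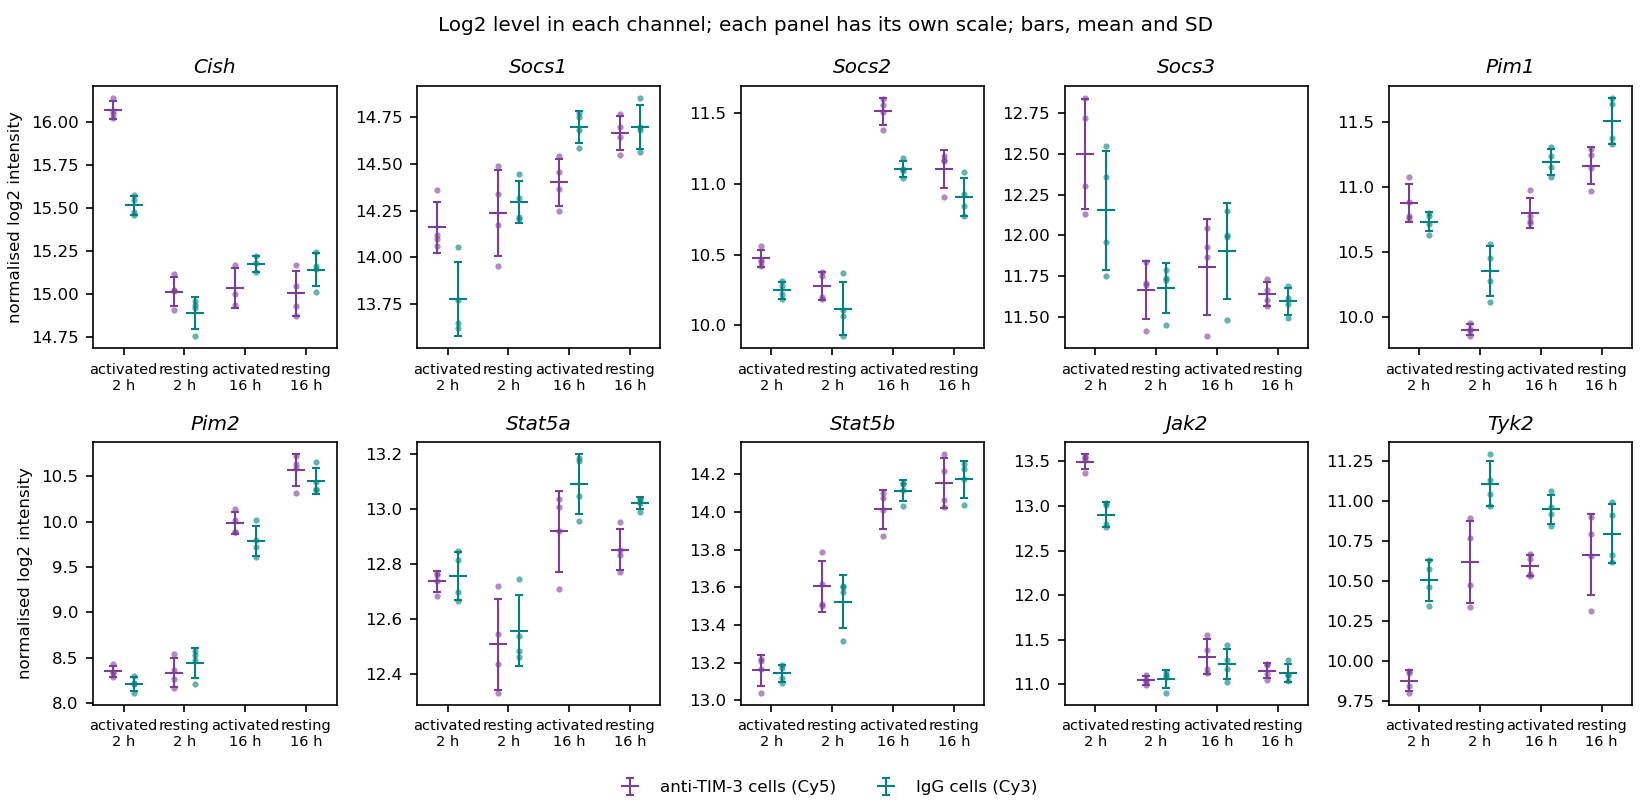
Normalised log2 intensity of each member on each array (points) with the group mean and SD (bars), anti-TIM-3 cells (Cy5) left of IgG cells (Cy3) in each group; every panel has its own vertical scale, and levels of different genes cannot be compared. Jak2 and Cish peaked in activated cells at 2 h, Pim2 and Stat5b were higher at 16 h than at 2 h.

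Over the 8 means (4 groups in 2 dyes), the genes whose levels followed Jak2 most closely were Sema4b (Pearson r = 0.997), Tmigd3 (0.997) and Gramd1b (0.996). For Cish they were Tgif2 (0.989), Rabgef1 (0.985) and Zc3h12c (0.983), for Pim2 Tcrg (0.997), Kif15 (0.996) and Cacnb4 (0.995), and for Socs2 Cetn4 (0.990), Trio (0.980) and Pcyt2 (0.979). Pim1 had Haus8 (0.958), Gpr171 (0.956) and Icosl (0.954), Stat5b had Sptssa (0.999), Ptprg (0.997) and Rnf43 (0.997), and Tyk2 had Myo1f (0.972), Cyb561a3 (0.957) and Neurl3 (0.954). These are the closest of 2956 genes with a span of at least 1 log2 unit, the 8 means share arrays, and no test applies.

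The rest of the pathway was read from lists of related genes in the comparison of ratios, activated minus resting. At 2 h, where 3.59% of all genes were called higher, 11 of 14 measured ligands that signal through JAK-STAT were higher and 0 lower, with a median difference of 0.82 against -0.00 for all genes, and Csf2, encoding GM-CSF, differed by 3.08, Il2 by 2.43 and Il6 by 2.24. Of 14 other STAT5 targets 4 were higher and 0 lower, led by the cell cycle inhibitor Cdkn1a (0.57), the cytokine Osm (0.47) and the survival gene Bcl2l1 (0.40). Of 12 further JAK, STAT, SOCS and Pim genes, Stat4 (0.29) and Socs5 (0.27) were higher and 0 lower, and Socs5 missed the threshold with Agilent's processed signals (0.23, adjusted p = 0.0541). Of 13 other inhibitors of the pathway, the phosphatase gene Dusp4 (0.54, adjusted p = 0.0409) was higher. That call was lost with Agilent's processed signals (0.48, adjusted p = 0.114) and without the 3 arrays that stood apart (0.51, adjusted p = 0.13). It was also lost without resting replicate 1 or 3 or any 1 activated replicate. Of 20 receptors 0 passed in either direction. At an unadjusted p under 0.05 in the limma fit 7 of them passed, a threshold for which no share of all genes is given. Cdkn1a missed the threshold with slide as a block (0.48, adjusted p = 0.0573) and without activated replicate 4 (0.51). Lists and members alike were chosen with earlier results of these arrays known.

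At 16 h, where 8.58% of all genes were called in either direction, the ratio difference was higher for 2 and lower for 2 of the 14 ligands, among them Il9 (0.52), Il6 (0.46) and Il15 (-0.43), and lower for 2 of the 14 other STAT5 targets, Gfi1 (-0.51) and Osm (-0.34). Il4ra, the IL-4 receptor chain, differed by -0.63 and Il3ra, the IL-3 receptor alpha chain, by -0.25, the 2 receptors called. Of the 13 other inhibitors 1 was higher and 1 lower, the interferon-induced Usp18 (-0.66). Of the 12 further JAK, STAT, SOCS and Pim genes 2 were higher and 0 lower, among them Pim3 (0.41). The Pim3 call was lost with slide as a block (0.37, adjusted p = 0.12) and with Agilent's processed signals (0.44, adjusted p = 0.0683). The call of Osm was lost without the 3 arrays that stood apart (-0.31, adjusted p = 0.0693), with slide as a block (-0.32, adjusted p = 0.0801), with median centring (-0.24, adjusted p = 0.111) and without resting or activated replicate 1 or 3. That of Il3ra was lost without the 3 arrays (-0.24, adjusted p = 0.0571), with median centring (-0.16, adjusted p = 0.232) and without resting replicate 1 (-0.22, adjusted p = 0.0595). The median gene differed by 0.06 under median centring, which is not taken off the Osm and Il3ra values. Between 16 h and 2 h in activated cells, where 8.05% of all genes were lower, 8 of the 14 other STAT5 targets and 11 of the 14 ligands were lower and 0 of either higher, Ccnd2 by -0.79, Id1 by -0.74 and Osm by -0.72 among the targets. Osm is in both lists and counts in each, here and in the comparisons above. Of the 12 further JAK, STAT, SOCS and Pim genes 1 was higher and 1 lower. Of the 13 other inhibitors, as of the 20 receptors, 1 was higher and 2 lower. In the IgG cells alone, where antigen at 2 h changed 42.9% of all genes, it raised 5 of the 12 further JAK, STAT, SOCS and Pim genes and lowered 0, led by Stat6 (0.89), Pim3 (0.56) and Socs7 (0.51), and of the 20 receptors 6 rose and 5 fell, among them Epor, the erythropoietin receptor that signals through JAK2 (2.83-fold), Il4ra (log2 -0.95) and Kit (log2 -0.89). Neither list's count in IgG cells, 5 of 12 and 11 of 20, was far from that share.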

How the data were processed

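RNA of anti-TIM-3 cells (Cy5) and IgG cells (Cy3) was compared on 16 Agilent whole mouse genome arrays, 4 per group, 1 array file each. Per the file headers, the deposited spot intensity values came from the scanner software Agilent Feature Extraction 9.1.3.1, given as version 9 in the submitters' processing notes, whose processed signals and log10 ratio are background-subtracted and dye-normalised. The deposited value table held the same log10 ratio (largest difference 0). Starting from mean signal and local background intensity, background was corrected here with normexp (offset 50), dyes were normalised by loess within arrays with control and outlier spots at weight 0, and channels were scaled with Aquantile (limma 3.58.1, R 4.3.3). Probes not clearly brighter than background in Cy5 or Cy3 on 3 or more of the 4 arrays of any group were dropped, leaving 25394 of 41174, and the brightest probe stood for each of 17082 genes. Probes were named through RefSeq by accession (22951), symbol (6659) or synonym (3109), and 8455 kept the name in the file. Normalised values are log2 values computed from the deposited intensities.

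All 16 arrays entered 1 limma fit per measure (log2 ratio, Cy5 level, Cy3 level), with Benjamini-Hochberg adjustment over all genes tested and a threshold of 0.05, for 14 comparisons. The code was tested on simulated data. The number of arrays limits the precision, since intensities carry no counts. Slide was examined as a batch, and each of the 4 slides held several groups. Same-numbered arrays deviated together in each pair for the IgG-cell comparisons (r from 0.13 to 0.67) and for anti-TIM-3 cells at 16 h (0.23 to 0.54), so the replicate number was taken to pair arrays there. It was not so taken for anti-TIM-3 cells at 2 h, where r was also positive in each pair (0.08 to 0.47), or for ratios (-0.45 to 0.63). The line between a lowest r of 0.08 and of 0.13 was a choice and rests on no test. The main calls of all comparisons came from the fit without a block. The members, gene lists and alternatives were chosen with earlier results of these data known. All 10 members were named, and of each other list up to 3 called genes with the largest change per comparison.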

Additional observations from a re-analysis of the deposited data

Results flagged for a closer look

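In 4 cases a single value lay apart from the other 3 arrays of its group by Dixon's criterion at 95%. These were the Socs2 level in anti-TIM-3 cells on resting 16 h replicate 4 (10.9, the others 11.16 to 11.20), the Stat5b level in IgG cells on resting 2 h replicate 1 (13.3, the others 13.57 to 13.61), the Socs3 ratio on resting 2 h replicate 1 (0.048, the others -0.04 to -0.03) and the Pim1 ratio on resting 16 h replicate 3 (-0.23, the others -0.39 to -0.37). Chance marks about 1 in 20 groups, and 117 groups were examined.

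The ratio of anti-TIM-3 to IgG cells was different in activated than in resting cells at 2 h for Jak2 (0.61), Pim1 (0.60), Socs1 (0.44), Cish (0.43) and Socs3 (0.36), and at 16 h for Socs3 (-0.15). In activated cells it differed between 16 h and 2 h for Cish (-0.69), Socs1 (-0.68), Pim1 (-0.54), Jak2 (-0.52) and Socs3 (-0.45). Each of these is a test of the difference itself in the limma fit.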

How the results depend on the processing

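Of the members' alternative values, 2025 kept their side of the threshold, and their direction where called, 71 no longer passed, 46 newly passed and 18 past the threshold in one of the settings changed sign. Of the 2025, 74 that passed in neither setting also changed sign. All 18 came from centring each array on its median log ratio in place of loess: at 2 h in resting cells Socs1 0.54, Socs3 0.37, Stat5a 0.40 and Jak2 0.34, at 2 h in activated cells Stat5a 0.51, at 16 h in resting cells Cish 0.56, Socs1 0.63, Pim1 0.12, Stat5a 0.38, Stat5b 0.61 and Tyk2 0.30, and at 16 h in activated cells Cish 0.70, Socs1 0.54, Socs3 0.51, Pim1 0.16, Stat5a 0.53, Stat5b 0.70 and Tyk2 0.19. The median gene moved with them, by the amounts given with the ratios, so these values are not relative to it. With this centring the called genes numbered 10476 for the resting 2 h ratio (10143 higher and 333 lower, against 2389 with loess), 11073 for activated 2 h (5696), 12493 for resting 16 h (3695), 13562 for activated 16 h (5147), 2213 for activated minus resting at 16 h (1465), 302 for 16 h minus 2 h in resting cells (49) and 5345 in activated cells (2937). The called members numbered 7 for resting 2 h (3), 10 for activated 2 h (6), 9 for resting 16 h (3) and 8 for 16 h minus 2 h in activated cells (5). Fitting only the groups compared gave 375 genes for the resting 2 h ratio, 1729 for resting 16 h, 571 for activated minus resting at 2 h (953 in the joint fit), 8 for 16 h minus 2 h in resting cells, and 0 members for activated minus resting at 16 h (1). Slide as a block gave 0 members there and 29 genes for 16 h minus 2 h in resting cells, where Agilent's processed signals gave 19. Leaving out the 3 arrays that stood apart gave 1966 genes for the resting 16 h ratio. For antigen in IgG cells at 16 h, no filter and the mean of a gene's probes each gave 1 member (2). With the replicate number as a block, called members were 4 for antigen in IgG cells at 16 h (2), 5 in anti-TIM-3 cells at 16 h (3), 2 for activated minus resting ratios at 16 h (1) and 1 for 16 h minus 2 h in resting cells (0), with 275 genes in the last. The other member counts under this block have no share of all genes beside them. Over the comparisons that the number paired, the block changed no member's call other than those given with the antigen and time results. Leaving out 1 array at a time gave 1450 to 3648 genes for the resting 16 h ratio, 1262 to 2057 for resting 2 h, 576 to 1097 for activated minus resting at 2 h, 862 to 1686 at 16 h and 23 to 1957 for 16 h minus 2 h in resting cells. It gave 4 to 7 members for the activated 16 h ratio, 1 to 3 for resting 16 h, 0 to 2 for 16 h minus 2 h in resting cells, 0 to 1 for activated minus resting at 16 h and 1 to 2 for antigen in IgG cells at 16 h. Called genes fell too, to 3524 to 4343 for the activated 16 h ratio (5147 on all arrays). For antigen in IgG cells at 16 h they fell to 1581 to 1894 (2105). The causes of these changes were not tested. The 5 members called for activated minus resting at 2 h stayed called under all alternatives run except Cish with Agilent's signals, and those for 16 h minus 2 h in activated cells under all run.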
